A study of Rattus norvegicus with 4 samples.

Results

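Interferon response and MHC genes were followed in cultured rat ovaries. The set was drawn by gene symbol from the platform annotation. It takes in interferon-induced genes (Ifi, Ifit and Ifitm, Isg, Mx, Oas, Gbp, Rsad2, Bst2, Usp18), sensors of double-stranded RNA (Ifih1, Eif2ak2), interferon regulatory factors and Stat2, the class I loading genes (B2m, Tap1, Tap2, Tapbp) and the loci of RT1, the rat MHC. Of 14217 genes with a probe set of their own, 62 were members, covered by 86 probe sets, and each gene was read at its brightest probe set, by the mean of the 4 arrays. Of the 62 members, 54 were bright enough to be tested. The other 8 (Isg20l2, RT1-Bb, Oas1b, Ifitm10, RT1-A3, RT1-Db1, Tap2 and Irf5) lay below the filter, which left out the lowest 40 percent of probe sets (an intensity of about 27.8). Of the tested genes, 3 (Irf2bp1, Irf2bp2 and Irf2bpl) match the pattern by name but encode partners of IRF2 or related proteins, and they are given apart.

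Whole ovaries of 4-day-old female rat pups were kept for 10 days on floating filters in a DMEM and Ham's F-12 mixture. The treated cultures received 50 ng/mL anti-Müllerian hormone (AMH), and the control cultures had no addition. Both groups' media held bovine serum albumin, Albumax, insulin, transferrin, ascorbic acid and antibiotics. Each RNA sample was a pool of about 10 ovaries, with 2 independent pools per group and 1 Affymetrix array per pool, so the 4 arrays are AMH 1, AMH 2, control 1 and control 2. Differences are AMH minus control on a log2(intensity + 16) scale, ± the standard error from limma fitted across all tested probe sets, with 2 arrays in each group.

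Interferons are secreted proteins that cells release on sensing viral nucleic acid or other danger signals. Type I interferons act through the IFNAR receptor, JAK1 and TYK2 on a complex that holds STAT2 and IRF9 and binds the interferon-stimulated response element. Interferon gamma acts through IFNGR, JAK1 and JAK2 on genes with a gamma-activated site, and it raises MHC, immunoproteasome and guanylate-binding protein genes. In tissues, resident macrophages are a major site of MHC class II expression, while class I is made by most nucleated cells.

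To show the control sequences that the members share, the 250 bases before the gene start were searched in RefSeq promoters of the GRCr8 assembly, which held 52 of the 62 members. The response element was searched on both strands as GAAA, any 2 bases and GAAA, and was present in 23 of these 52 (44.2%), against 902 of 27457 promoters in the whole table (3.29%). The gamma-activated site, searched as TTCNNNGAA, was present in 11 of 52 (21.2%), against 7.52% of all promoters. Both motifs were present in 6 members, and their matches overlapped in 1. The stretches printed here are from 4 of the members with at least 2-fold more signal on the second AMH array than on the first (Irf7, RT1-S3, Rsad2, Isg20) and from 3 that were lower with AMH (Ifitm3, Ifit3, Oas1a). Capitals mark the matched letters, which begin with TTTC where the element runs on the opposite strand.
Irf7: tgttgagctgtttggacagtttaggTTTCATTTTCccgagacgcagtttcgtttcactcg
RT1-S3: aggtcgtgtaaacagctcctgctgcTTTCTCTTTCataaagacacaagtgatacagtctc
Rsad2: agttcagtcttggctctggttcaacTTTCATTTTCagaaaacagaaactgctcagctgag
Isg20: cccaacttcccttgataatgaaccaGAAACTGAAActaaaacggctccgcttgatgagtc
Ifitm3: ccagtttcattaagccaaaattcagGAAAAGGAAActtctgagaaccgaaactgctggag
Ifit3: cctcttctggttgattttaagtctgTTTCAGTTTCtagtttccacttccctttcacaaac
Oas1a: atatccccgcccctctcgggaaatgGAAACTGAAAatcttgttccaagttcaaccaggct
They lie at chr1:205800058-205800117 on the minus strand (Irf7), chr20:2675391-2675450 on the plus strand (RT1-S3), chr6:48788233-48788292 on the minus strand (Rsad2) and chr1:142239942-142240001 on the plus strand (Isg20). The others lie at chr1:205541768-205541827 on the minus strand (Ifitm3), chr1:241527257-241527316 on the plus strand (Ifit3) and chr12:41330406-41330465 on the plus strand (Oas1a). The matched letters began 69 bases before the gene start in Irf7, 112 in RT1-S3, 147 in Rsad2, 92 in Isg20, 44 in Ifitm3, 44 in Ifit3 and 35 in Oas1a, where a second match overlapped the one shown. A match describes letters in the window and shows no binding.

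The arrays set limits on what follows. The chip identifiers carried 2 number strings, none shared by both groups. Anything these strings mark, such as a run, cannot be told apart from group. The 3′/5′ intensity ratio of GAPDH, a measure of RNA and labelling quality, was 6.56 and 6.37 on the AMH arrays and 1.17 and 1.27 on the control arrays. That of beta-actin was 10.7 and 14.4 on the AMH arrays and 3.17 and 4.60 on the control arrays. The 3′ intensity of beta-actin was itself lower, at 844.8 and 1014 with AMH against 5473.6 and 4217.8 in control. For GAPDH the 3′ intensity was 2388.7 and 2569.5 with AMH against 3034 and 3150 in control. Both ratios were higher on both AMH arrays than on either control array, and that of beta-actin also differed between the AMH arrays. Their part in the results was not tested. Ovary markers were present: all 7 listed oocyte markers and all 9 listed granulosa markers were above the filter, by the mean of the 4 arrays. Bmp15, an oocyte marker, passed through its control values (147.5 and 115.2) and was below the filter level with AMH (22.6 and 22.3). A test on 4 arrays draws on the spread pooled over all probe sets, and p-values measure only the spread between these pools.

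The share of members called between AMH and control was near that of all tested genes, while the AMH arrays differed more from each other over these genes than over all tested genes (SD of the log2 difference 0.96 over members and 0.43 over all genes). With AMH, 3 of 54 tested members were higher and 8 were lower at an adjusted p of 0.05, against 11.1% of all 10621 tested genes called higher and 11.9% called lower. The member counts correspond to 5.56% and 14.8%. Their median difference was -0.15, beside 0.072 for all tested genes. Scaled to the hybridization controls, the split was 1 higher and 15 lower, against 146 and 4935 of all 18625 tested probe sets. The median over all genes was then -0.35. In 4 members both AMH arrays lay above both control arrays and in 15 both lay below, against 36% and 28.6% of all genes. The other 35 members overlapped between groups. In whole ovaries, fewer cells of a type and less RNA per cell cannot be told apart.

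On AMH 2, 41 of 54 members were brighter than on AMH 1 (75.9%, against 48.8% of all tested genes), with a median difference of 0.61 on the log2 scale (-0.0090 for all genes). For 15 members (27.8%) AMH 2 exceeded AMH 1 by at least 1 on the log2 scale, a step of 2-fold, which 1.87% of all genes reached. The reverse held for 2 members, Mx2 and RT1-CE12 (1.05% of all genes). Among the 15, RT1-Ba was read at a probe set that was picked, and passed the filter, through its AMH 2 value. In 20 members AMH 1 lay below both control arrays while AMH 2 lay above both (37.0%, against 5.83% of all genes). The control arrays differed less, with 30 of 54 members brighter on control 2, a median difference of 0.063 and an SD of 0.57, against 0.31 over all genes.

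**Figure D1:**
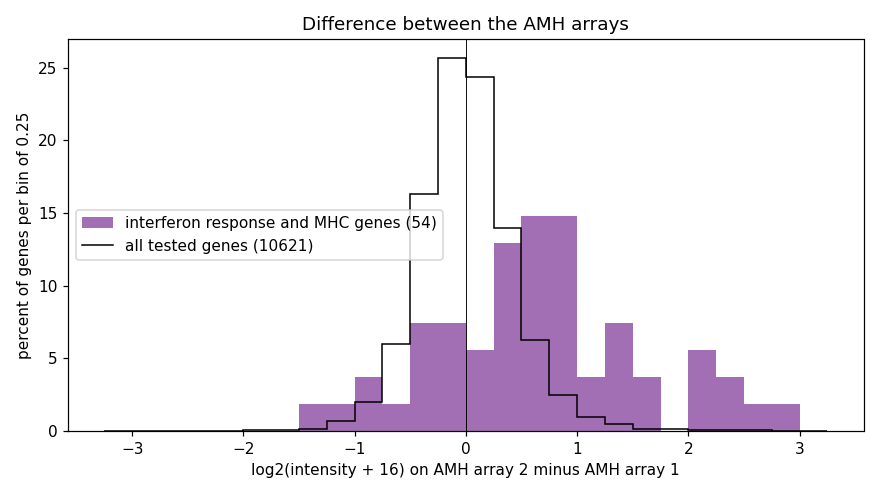
Share of genes (y axis, percent per bin of 0.25) by the log2(intensity + 16) difference of AMH array 2 minus AMH array 1 (x axis), for the 54 tested interferon response and MHC genes (bars) and all 10621 tested genes (line). The members are shifted to the right, with a median of 0.61 and 15 members at 1 or more, while the line is centred near 0.

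The counts of calls depended on which pool was left out. Without AMH 1, 15 members were higher and 7 lower, against 15.7% and 14.1% of all genes. Without AMH 2, 4 were higher and 23 lower, against 14.6% and 15.3% of all genes, and the members' median difference was -0.49, compared with 0.20 without AMH 1. Without control 1 the counts were 5 higher and 7 lower (2.22% and 5.23% of all genes), and without control 2 they were 3 and 6 (3.95% and 6.47%). Each such fit leaves a group with 1 array, assumed to vary as the other group does, so without an AMH pool the p-values ignore the spread that separates the AMH pools.

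Most markers of leukocytes, and all 4 tested markers of surface epithelium, were also brighter on AMH 2 than on AMH 1. Of 24 macrophage and other leukocyte markers 23 were listed, and their summed intensity was 1562.5 on AMH 1 and 3417 on AMH 2, against 2395.2 and 2186.4 on the control arrays. Of the 18 tested, 17 were brighter on AMH 2 than on AMH 1, 6 of them by at least 1 on the log2 scale, and the median was 0.82. Over all tested genes 48.8% were brighter on AMH 2, and 1.87% by at least 1. Csf1r went the other way, with 101.9 and 59.1 with AMH, against 76.6 and 80.1 in control. Laptm5 (45.9 and 48.2 with AMH) and Cd68 (135.2 and 141.8 with AMH) differed little. The largest differences were those of Lyz2 and Aif1. Lyz2, the lysozyme of macrophages and neutrophils, had 133 and 837 with AMH, against 283.3 and 290.9 in control. Aif1, a macrophage marker, had 3.2 and 65.4 with AMH, against 79.6 and 55.9 in control, and its AMH 1 value is below the filter level. Nkg7, Itgam, Cd3e, Ms4a1 and Cd163 were below the filter. The 4 surface epithelium markers summed to 1511 and 2908.1 with AMH, against 3519.3 and 2906.8 in control. Between the AMH arrays 2 of them differed by at least 1, and their median was 0.75. The 9 endothelial markers summed to 1428.5 and 1514.4 with AMH, against 1250.1 and 1281.7 in control. Of the 8 tested, 4 were brighter on AMH 2, with a median of 0.11. Cd68 (higher) and C1qb (lower) were the leukocyte markers called between the groups. C1qb had 14.7 and 27.7 with AMH, below the filter level, against 105.7 and 72.9 in control, so it was tested through its control values. Oocyte markers summed to 7355.7 and 7740.3 with AMH, against 10375.1 and 9743 in control, and 4 of 7 were lower. Among the lower ones, Bmp15 was tested through its control values. Granulosa markers summed to 6559.6 and 4235 with AMH, against 3186.4 and 2525.4 in control, and 3 of 9 were higher. Red blood cell markers summed to 100.3 and 84.5 with AMH, against 1406.1 and 1217.6 in control, and 1 of 2 was lower. Beside these marker counts, 11.1% of all tested genes were higher and 11.9% lower. The part of the marked cell types in the differences was not tested.

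**Figure D2:**
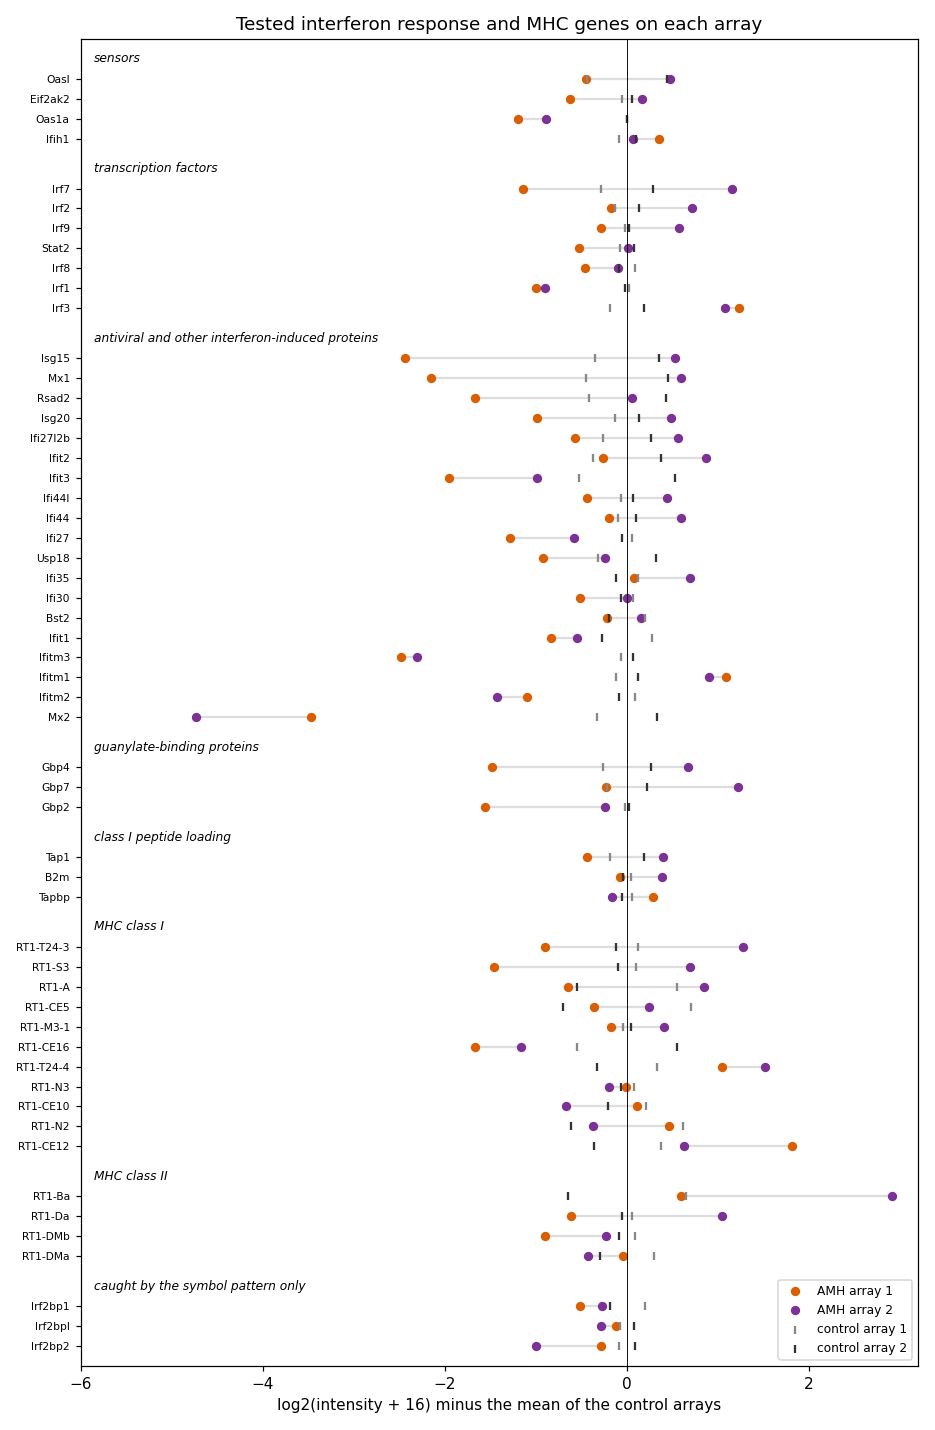
Each of the 54 tested members (rows, grouped by role) on the 4 arrays, as log2(intensity + 16) minus the mean of the control arrays (x axis), with circles for the AMH arrays and ticks for the control arrays. Isg15, Mx1, Irf7 and the Gbp genes have AMH 1 far to the left of AMH 2, while Ifitm3, Irf1, Irf3 and Ifitm1 have both AMH arrays together, away from control.

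Among the sensors of viral RNA, 1 of 4 tested members was lower and none was higher. Of all tested genes 11.9% were lower and 11.1% higher, the shares to set beside the counts of each role. Oas1a, which makes the 2-5A messenger that activates RNase L, had 161.9 and 204.5 with AMH, against 390.4 and 392.3 in control. Both AMH arrays lay below both controls, and Oas1a fell by 1.04 ± 0.18 (2.06-fold, adjusted p = 0.0063). Eif2ak2, the kinase PKR that halts translation, had 109 and 201.6 with AMH, against 170.3 and 185.2 in control (-0.23 ± 0.26, adjusted p = 0.567). AMH 1 lay below the controls and AMH 2 above them. Ifih1, the RNA sensor MDA5, was dim at 42.1 and 31.7 with AMH, against 26.7 and 32.6 in control (adjusted p = 0.605). Oasl, an OAS family member, had 119.4 and 240.5 with AMH and 121.2 and 234.7 in control, so each group held a low and a high array.

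Of the 7 tested transcription factors, 1 was higher, 1 lower and 5 were not called (11.1% higher and 11.9% lower over all tested genes). Irf3, which is present before infection and starts interferon transcription, had 572.1 and 511.3 with AMH, against 204.6 and 267.9 in control. It rose by 1.15 ± 0.18 (2.23-fold, adjusted p = 0.00479). Irf1, a factor that interferon gamma induces and that drives MHC class I genes, had 323.1 and 347.5 with AMH, against 674.8 and 652.2 in control. It fell by 0.95 ± 0.15 (1.94-fold, adjusted p = 0.00488). Both AMH arrays of each gene lay outside the control range, and the calls of Irf1 and Irf3 held in all 14 alternatives.

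Irf7, the amplifier of type I interferon, behaved differently. It had 241.3 on AMH 1 and 1248.5 on AMH 2, against 448.7 and 676.9 in control. The AMH arrays stood on opposite sides of the controls, and the mean difference was 0.0075 ± 0.60 (adjusted p = 0.995). Without AMH 2 it was -1.14 (adjusted p = 0.00512) and without AMH 1 it was 1.16 (adjusted p = 0.00475), so each direction passed with 1 AMH array. Irf9, the DNA-binding part of the type I complex, had 141.8 and 267.6 with AMH, against 172.6 and 178.8 in control (0.14 ± 0.27, adjusted p = 0.744). Its dimmer probe set had 122.8 and 122 with AMH, against 113.1 and 100.9 in control, with no such gap. Stat2 had 100.6 and 153.9 with AMH, against 143.1 and 162.1 in control (-0.26 ± 0.23, adjusted p = 0.453). Irf2, a paralog of Irf1, had 48.5 and 103.2 with AMH, against 50.1 and 63.8 in control (adjusted p = 0.569). In Irf9, Irf2 and Stat2 AMH 1 was the lowest of the 4 arrays. Irf8, a factor of macrophages and dendritic cells, was dim at 25 and 36.7 with AMH, against 44.1 and 37 in control (adjusted p = 0.481).

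The 19 tested antiviral and other interferon-induced genes held 5 of the 8 falls and 1 rise (26.3% and 5.26%, against 11.9% and 11.1% of all genes). Their median was -0.92 on AMH 1 and 0.15 on AMH 2 relative to control. Isg15, a ubiquitin-like protein attached to newly made proteins, had 183.2 on AMH 1 and 1537.1 on AMH 2, against 826.9 and 1365.2 in control. No tested gene on the arrays had a larger AMH 2 minus AMH 1 difference than Isg15, at 2.96 on the log2 scale. Its AMH minus control difference was -0.96 ± 0.76 (adjusted p = 0.402), with -2.44 without AMH 2 and 0.53 without AMH 1. Mx1, a dynamin-like GTPase that blocks virus replication, had 56 and 468.1 with AMH, against 219.1 and 421 in control (-0.78 ± 0.73, adjusted p = 0.478). It differed by 2.75 between the AMH arrays. Rsad2, the antiviral enzyme viperin, had 81.3 and 305.3 with AMH, against 214.4 and 398.1 in control (-0.80 ± 0.50, adjusted p = 0.282). Isg20, an RNA exonuclease, had 45.8 and 155.4 with AMH, against 95.6 and 118.3 in control (-0.25 ± 0.42, adjusted p = 0.707). In each of these 4 genes AMH 1 was below both control arrays, and AMH 2 was above at least 1 of them.

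**Figure D3:**
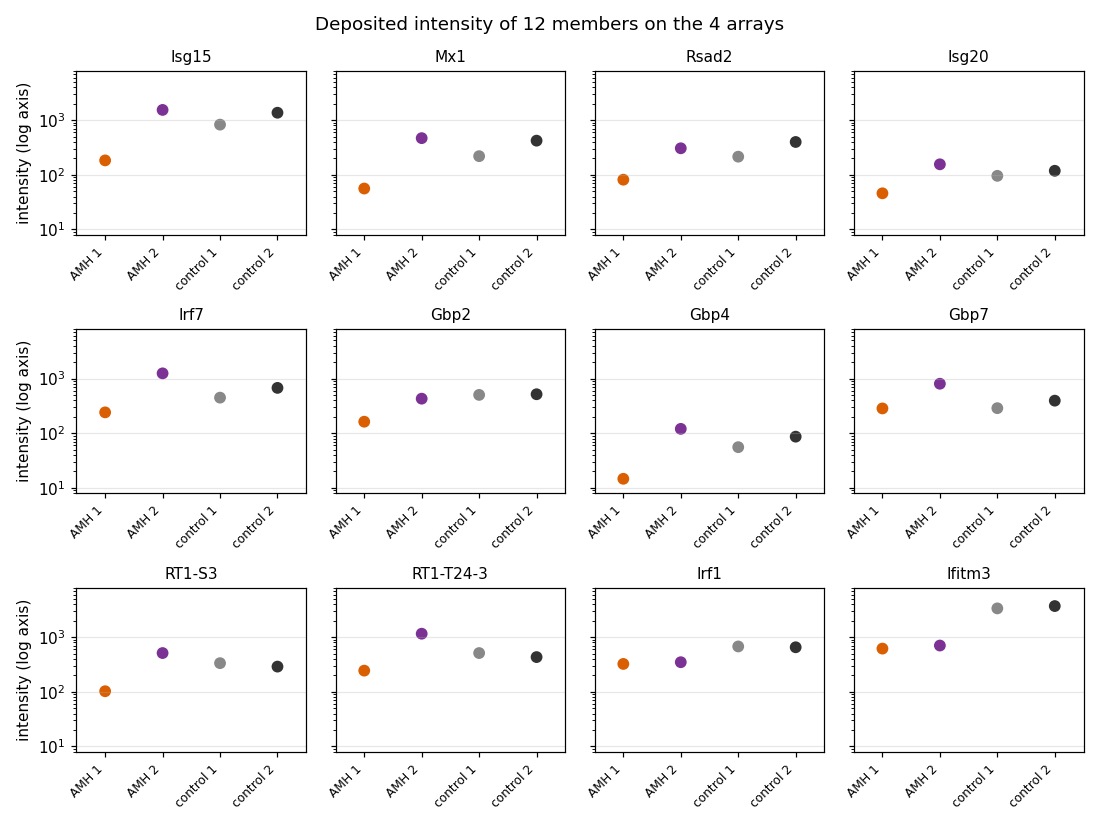
Deposited intensity (y axis, log scale) of 12 members on AMH 1, AMH 2, control 1 and control 2, 1 point per array. Isg15 lies at 183.2 on AMH 1 and 1537.1 on AMH 2, whereas Irf1 and Ifitm3 have both AMH points below both control points.

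The Ifit and Ifitm families did not move as blocks. Ifitm3, which keeps viruses from fusing with endosomes and also marks early germ cells in the mouse, had 616.7 and 701.5 with AMH, against 3356.1 and 3701.3 in control. It fell by 2.39 ± 0.15 (5.25-fold, adjusted p = 0.000268), a call that held in all 14 alternatives. Ifitm2 had 951.7 and 752.2 with AMH, against 2183.2 and 1932.4 in control, and fell by 1.26 ± 0.16 (2.40-fold, adjusted p = 0.00205). Ifitm1 had 4264.9 and 3747 with AMH, against 1841.3 and 2173.9 in control, and rose by 0.99 ± 0.15 (1.99-fold, adjusted p = 0.0039). That rise was not called with hybridization control scaling (adjusted p = 0.102). These paralogs are close in sequence, so their probe sets may share signal. Over the Ifitm family AMH 1 and AMH 2 stood close together.

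Ifit3, whose protein binds other IFIT members on viral RNA, had 19.2 and 52.9 with AMH, against 78.8 and 181.4 in control. It fell by 1.47 ± 0.41 (adjusted p = 0.037), a call lost in 6 of 13 alternatives. These were without AMH 1 (-0.99, adjusted p = 0.0775), without control 2 (-0.94, adjusted p = 0.176), no filter (0.082), quantile normalization (0.0566), the mean over probe sets (0.0604) and no intensity trend (0.0577). Ifit1, which binds viral RNA lacking cap methylation, had 55.1 and 70.5 with AMH, against 137.2 and 88.6 in control (-0.69 ± 0.25, adjusted p = 0.085). All AMH values of these 2 genes lay below all of their control values. Ifit2 had 132.9 and 309.5 with AMH, against 121.6 and 214.7 in control (0.31 ± 0.37, adjusted p = 0.597). Its dimmer probe set had the opposite sign, with 39.1 and 79.4 with AMH, against 58 and 107 in control (-0.40, adjusted p = 0.436).

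Mx2, the Mx1 paralog, had 31.2 and 3.7 with AMH, against 401.3 and 640.9 in control. It fell by 4.10 ± 0.40 (adjusted p = 0.000686), the lowest value of any tested gene. The AMH 2 value and the AMH mean of 17.45 are below the filter level, so this probe set was tested through its control values. The size of the fall depends on the constant added and ran from -5.37 to -2.82 over the alternatives. The other Mx2 probe set had 43.5 and 167.3 with AMH, against 258.4 and 323.9 in control. It fell by 1.55 (adjusted p = 0.0398), and AMH 2 was the brighter AMH array there. The 2 probe sets gave the same call and opposite orders of the AMH arrays.

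Ifi27, a mitochondrial protein that interferon induces, had 1115.6 and 1826.9 with AMH, against 2861.6 and 2645.7 in control, and fell by 0.94 ± 0.22 (adjusted p = 0.0199). The difference was -0.59 without AMH 1, and the call was lost without control 1 (adjusted p = 0.0705). Usp18, the protease that removes ISG15 and damps IFNAR signalling, had 154.7 and 257.9 with AMH, against 244.2 and 386.3 in control (-0.58 ± 0.28, adjusted p = 0.171). Bst2, or tetherin, which holds budding virus at the cell surface, had 1839.6 and 2390.9 with AMH, against 2470.4 and 1871.4 in control (-0.036 ± 0.19, adjusted p = 0.915), so its groups overlapped. The 13 members of this role that were not called, Isg15 and Ifi35 at the ends, spanned -0.96 to 0.38.

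**Figure D4:**
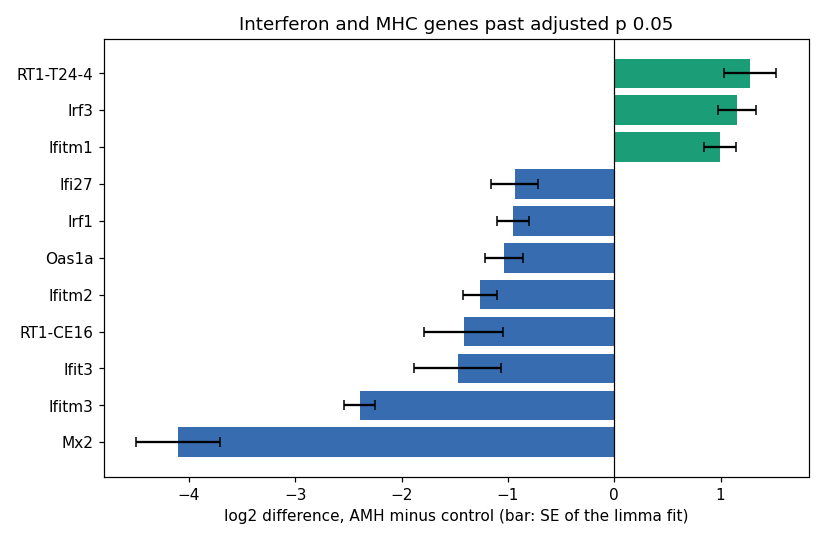
The 11 members past an adjusted p of 0.05, with the log2 difference of AMH minus control (x axis, bars, with error bars for the limma SE from 2 arrays in each group). RT1-T24-4, Irf3 and Ifitm1 were higher and 8 genes were lower, from -0.94 for Ifi27 to -4.10 for Mx2.

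Guanylate-binding proteins, GTPases that attack the vacuoles of intracellular microbes and respond to interferon gamma, gave no call among 3 tested genes, and each was brighter on AMH 2 by more than 1 on the log2 scale. Gbp2 had 162.8 and 429.8 with AMH, against 503.7 and 517.8 in control (-0.90 ± 0.36, adjusted p = 0.108). Both AMH arrays lay below control. Gbp4 had 14.7 and 120.4 with AMH, against 55.7 and 86.7 in control. Gbp7 had 284.8 and 806.2 with AMH, against 288.1 and 395.2 in control. Across the 3 genes AMH 1 was below both control arrays every time, against 38.0% of all tested genes. For Gbp7, AMH 1 was nearly level with control 1, and the AMH 1 value of Gbp4 is below the filter level.

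None of the 3 tested genes for loading peptide onto class I passed, and their groups overlapped. B2m, the invariant light chain of class I, had 5001 and 6901.6 with AMH, against 5425.2 and 5136.7 in control (0.15 ± 0.17, adjusted p = 0.556). Tap1, a subunit of the peptide transporter, had 66.2 and 130.9 with AMH, against 82 and 111.4 in control (-0.024 ± 0.30, adjusted p = 0.966). Tapbp, or tapasin, which bridges the transporter and class I, had 208.3 and 148.9 with AMH, against 175.3 and 161.6 in control (0.061 ± 0.21, adjusted p = 0.861). Tap2 was below the filter at 29.7 and 26.6 with AMH and 26.8 and 10.1 in control. Of these 4 genes Tapbp and Tap2 were brighter on AMH 1.

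Of 11 tested MHC class I genes 1 was higher, 1 lower and 9 were not called, beside 11.1% higher and 11.9% lower over all tested genes. RT1 loci are similar in sequence, and 6 of the 18 RT1 members were read at a probe set whose name marks probes shared between transcripts (a, s or x types), so locus assignments are uncertain. RT1-T24-4 had 696 and 975.2 with AMH, against 420.4 and 259.1 in control, and rose by 1.28 ± 0.25 (2.42-fold, adjusted p = 0.0101, but 0.0918 with hybridization control scaling). RT1-CE16 had 21 and 36.2 with AMH, against 64 and 156.2 in control, and fell by 1.42 ± 0.37 (adjusted p = 0.0295). The AMH 1 value is below the filter level, and the call was lost without AMH 1 (adjusted p = 0.0525) or without control 2 (-0.86, adjusted p = 0.194). RT1-CE12 had 969.9 and 417.1 with AMH, against 347.2 and 202.1 in control (1.22 ± 0.37, adjusted p = 0.0511). Here both AMH arrays lay above control and AMH 1 was the higher of them.

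RT1-T24-3 and RT1-S3 carried the same gap as Irf7. RT1-T24-3 had 243.8 and 1154.7 with AMH, against 511.2 and 431.3 in control (0.18 ± 0.56, adjusted p = 0.844), with -0.90 without AMH 2 and 1.27 without AMH 1. RT1-S3 had 102.3 and 511.1 with AMH, against 334 and 288.8 in control (-0.39 ± 0.55, adjusted p = 0.656). Both genes had AMH 1 below and AMH 2 above the control arrays. The 3 other RT1-S3 probe sets were also brighter on AMH 2, with 51.1 and 123.3 at one that fell by 1.27 (203.1 and 232.5 in control, adjusted p = 0.0258). RT1-A had 37.1 and 133.3 with AMH, against 106.2 and 40.8 in control (adjusted p = 0.914). RT1-M3-1 had 156.4 and 242.3 with AMH, against 173.2 and 184 in control (adjusted p = 0.746). RT1-CE5, RT1-CE10, RT1-N2 and RT1-N3 ranged from -0.28 to 0.045, with no array above 74.5 in intensity.

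None of the 4 tested MHC class II genes passed. RT1-Da, the alpha chain of the rat DR-type molecule, had 48 and 186.2 with AMH, against 85.5 and 78.4 in control (0.22 ± 0.45, adjusted p = 0.77). RT1-Ba had 36.3 and 244.4 with AMH, against 38.6 and 6.1 in control at its brightest probe set (1.75 ± 0.69, adjusted p = 0.106). Its 3 other probe sets gave -0.078, -0.43 and -1.35, and the mean over all 4 was -0.029. The brightest of the 4 was picked, and passed the filter, through its AMH 2 value, and its control mean of 22.35 is below the filter level. RT1-DMb, a chain of the molecule that exchanges peptides on class II, had 48.8 and 86.8 with AMH, against 112.5 and 97.4 in control (-0.56 ± 0.26, adjusted p = 0.16), and RT1-DMa had 43.9 and 29.7 with AMH, against 59.8 and 34 in control. Cd74, the invariant chain that escorts class II and no member of the set, had 84.2 and 474.1 with AMH, against 251.6 and 151.3 in control (0.067 ± 0.61, adjusted p = 0.954). RT1-Da and Cd74 each had their highest value on AMH 2. So did the brightest probe set of RT1-Ba, but there this followed from how the probe set was picked. The 3 other RT1-Ba probe sets were each brightest on a control array. At the brightest of these 3, AMH 1 lay above AMH 2 (55.6 and 32 with AMH, 31.6 and 64.5 in control).

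The 3 tested genes that matched by name alone were lower with AMH at their brightest probe set, none past the threshold. Irf2bp2 had 728.3 and 441 with AMH, against 840.2 and 951.7 in control (-0.64 ± 0.23, adjusted p = 0.0786), while its dimmer probe set fell by 1.17 (adjusted p = 0.00731). Irf2bp1 (-0.39 ± 0.22) and Irf2bpl (-0.20 ± 0.16) did not pass. In all 3 the AMH arrays lay below the control arrays, as they did in 28.6% of all tested genes. AMH 2 was brighter than AMH 1 in 1 of the 3.

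Members with the response element and members without it were compared as a description. Among the tested members with a promoter in the table, 21 held the element, and 0 of these were higher and 5 lower. Of the 23 without it, 2 were higher and 2 lower. Over all tested genes 11.1% were higher and 11.9% lower, and the difference between these small groups was not tested. The median AMH 2 minus AMH 1 difference was 0.80 with the element and 0.50 without it. On AMH 1 the median relative to control was -0.99 with the element and -0.29 without it, and on AMH 2 it was 0.15 with the element and 0.24 without it.

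Around the members, 60 of the 70 other genes of interferon signalling and antigen processing had a probe set, and 53 were tested. Of these 6 were higher and 13 lower (11.3% and 24.5%), against 11.1% and 11.9% of all genes. With median centring the counts were 8 and 10, against 2095 higher and 2139 lower of 18625 tested probe sets. With hybridization control scaling they were 0 and 19, against 146 and 4935 of the tested probe sets. The interferon genes themselves were near the floor: Ifnb1 had 1.6 and 0.7 with AMH and 2 and 1 in control, and Ifng had 2.1 and 6.9 with AMH and 15.5 and 2.9 in control. The median difference of the 53 tested pathway genes from the control mean was -0.30 on AMH 1 and 0.087 on AMH 2. Over all tested genes these medians were 0.081 and 0.061.

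Receptor and kinase genes differed in direction. Ifnar2, a chain of the type I receptor, had 132.8 and 168.1 with AMH, against 256.9 and 225.1 in control, and fell by 0.63 ± 0.19 (adjusted p = 0.0485), a call lost in 10 of 14 alternatives. Ifnar1 (0.017 ± 0.24) was not called. Ifngr2, a chain of the interferon gamma receptor, had 269.2 and 358.1 with AMH, against 186.1 and 201 in control, and rose by 0.64 ± 0.19 (adjusted p = 0.0458). That call was lost in 8 of 14 alternatives, and the mean over its probe sets was -0.52. Ifngr1 gave 0.48 ± 0.16 (adjusted p = 0.073). Jak2, which serves the gamma receptor, had 78.2 and 92.3 with AMH, against 216.3 and 184.1 in control, and fell by 1.09 ± 0.20 (adjusted p = 0.00768, and 0.0704 without control 1). Jak1 (-0.023 ± 0.14) and Tyk2 (0.79 ± 0.25, adjusted p = 0.053) were not called. In the 3 genes that were called, all AMH values lay on one side of all control values.

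The immunoproteasome, which cuts peptides for class I and which interferon gamma induces, was lower with AMH at each of its catalytic subunits. Psmb9 had 59.9 and 124.9 with AMH, against 357.6 and 315.8 in control, and fell by 1.77 ± 0.28 (3.40-fold, adjusted p = 0.00496). Psmb10 had 43.8 and 86.2 with AMH, against 277.1 and 199.6 in control, and fell by 1.69 ± 0.29 (adjusted p = 0.0062). Psmb8 had 134.4 and 162.4 with AMH, against 297.1 and 218.4 in control, and fell by 0.73 ± 0.21 (adjusted p = 0.04), a call lost in 8 of 14 alternatives. The groups did not overlap for any of these subunits, and AMH 2 was the brighter AMH array each time. Psme1, an activator subunit of the proteasome, had 319.4 and 545 with AMH, against 1355.4 and 1167.4 in control. It fell by 1.55 ± 0.24 (adjusted p = 0.00413), while the mean over its probe sets fell by 0.67. Its partner subunit Psme2 had 599.3 and 982.2 with AMH, against 986.6 and 776.1 in control (-0.19 ± 0.24, adjusted p = 0.613), and its groups overlapped.

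**Figure D5:**
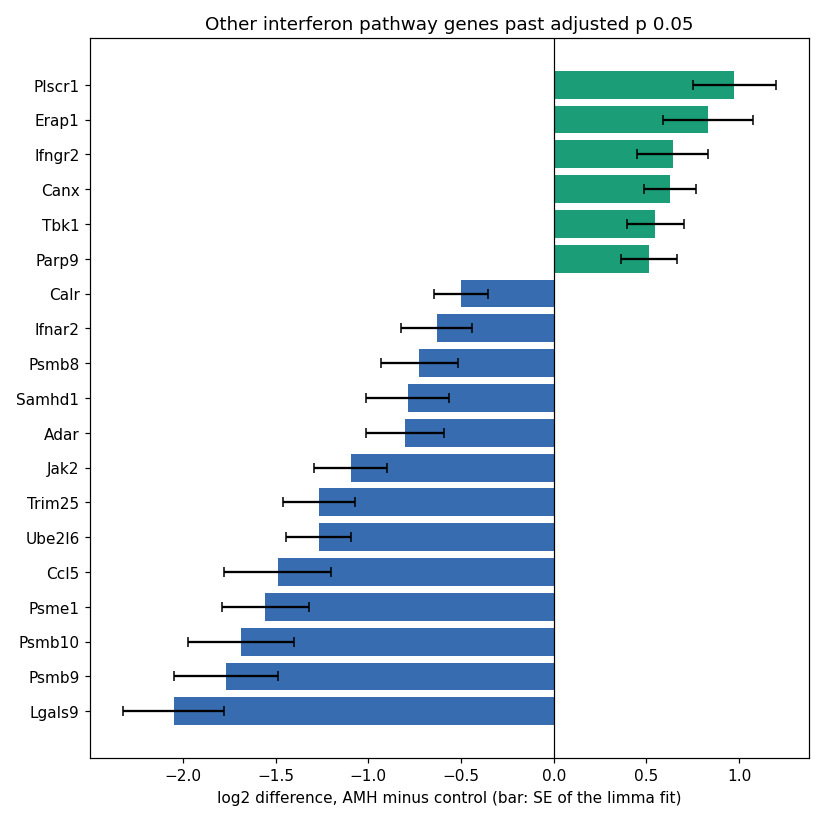
The 19 other interferon pathway genes past an adjusted p of 0.05, with the log2 difference of AMH minus control (x axis, bars, with error bars for the limma SE from 2 arrays in each group). The rises reach 0.97 for Plscr1 and the falls reach -2.05 for Lgals9, with Psmb9, Psmb10 and Psme1 among the lower genes.

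Other falls in this list were those of Lgals9, a galectin that interferon gamma induces (16.7 and 37.6 with AMH, against 157.9 and 156.9 in control, -2.05 ± 0.27, adjusted p = 0.00229), and Ube2l6, the enzyme that conjugates ISG15. Ube2l6 had 97.5 and 106 with AMH, against 268.6 and 266.3 in control, and fell by 1.27 ± 0.18 (adjusted p = 0.00284). Trim25, a ubiquitin ligase that activates the sensor RIG-I, had 169 and 199.5 with AMH, against 402.2 and 533.9 in control, and fell by 1.26 ± 0.19 (adjusted p = 0.00426). The calls of Ube2l6 and Trim25 held in all 14 alternatives. The AMH 1 value of Lgals9 is below the filter level and its AMH mean just under it, so it was tested through its control values, and the size of its fall ran from -2.60 to -1.29 over the alternatives. The 4 rises with the largest statistics were smaller. Plscr1, a phospholipid scramblase that interferon induces, rose by 0.97 ± 0.22 (adjusted p = 0.019, lost without control 1 at 0.151 and with hybridization control scaling at 0.166). The chaperone gene Canx rose by 0.63 ± 0.14 (-0.032 over the mean of its probe sets), Tbk1, the kinase that activates IRF3, by 0.55 ± 0.16, and Parp9 by 0.51 ± 0.15. Their adjusted p-values were 0.0176 for Canx, 0.0391 for Tbk1 and 0.0422 for Parp9. The call of Canx was lost in 5 of 14 alternatives, that of Tbk1 in 6 and that of Parp9 in 8, with differences of 0.15, 0.084 and 0.043 under hybridization control scaling. The other genes called in this list, Erap1 (higher) and Ccl5, Adar, Samhd1 and Calr (lower), were picked out only because they passed.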

How the data were processed

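RNA from pooled rat ovaries was measured on 4 Affymetrix arrays, 2 with AMH and 2 control. The authors deposited 1 intensity per probe set on a linear scale, and every array's trimmed mean was the same (125.03), so the values had been scaled. The labels name no software for this step. Here log2(intensity + 16) was taken, Affymetrix controls and the dimmest 40 percent of probe sets by mean were dropped, and 18625 of 31099 probe sets were tested with limma 3.58.1 in R 4.3.3 (lmFit, eBayes with an intensity trend, Benjamini-Hochberg, two-sided, threshold 0.05). Adjusted p-values in the text are from that fit or its named alternative. It had 2 residual and 6.33 prior degrees of freedom. No depth applies to arrays, and their number limits the precision. The fit was tested on simulated data.

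Symbols came from the platform annotation (20832 probe sets with 1 symbol, 436 with several, 9831 with none), and 61 of 62 members were matched in RefSeq by Entrez identifier. Promoters are RefSeq's, of GRCr8. The members and lists were chosen with earlier results of these data known. Genes were named by a rule: members past the threshold without overlap (up to 10 each way), the 6 with the largest difference between the AMH arrays, a list of well-known members, tested RT1 genes, and pathway genes by statistic or role. Gbp4, Gbp7, Oasl, Irf2, Irf2bp1, Irf2bp2, Irf2bpl, Psme2, Lyz2, Aif1, Cd68, C1qb and the extremes of a range fall outside it and were chosen after their values were seen. Bmp15, Csf1r and Laptm5 were likewise chosen after their values were seen. Alternatives were constants of 1 and 64, no filter or 60 percent left out, 3 other scalings, the mean over a gene's probe sets, no intensity trend, each array left out and the replicate number as a block. Those for the difference between the AMH arrays were chosen after seeing the data. Deviations of same-numbered arrays from their group means did not correlate (r = -0.00082 across probe sets, which are not independent replicates).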

Additional observations from a re-analysis of the deposited data

How the results depend on the processing

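Of 841 results for 61 named genes under 14 alternatives, 686 kept direction and side of the threshold, 33 newly passed, 59 no longer passed and 63 changed sign. The causes were not tested. With arrays left out in turn, calls over all probe sets ranged from 334 to 2245 higher and 1047 to 2886 lower, members from 3 to 15 higher and 6 to 23 lower with a median of -0.49 to 0.20, and pathway genes from 0 to 13 higher and 8 to 18 lower. No filter gave 1010 higher over all probe sets and 2 higher and 8 lower pathway genes. With hybridization control scaling 146 probe sets were higher and 4935 lower, 1 and 15 members, 0 higher pathway genes and 23 members at least 2-fold brighter on AMH 2. The mean over probe sets gave 848 and 1464 with 2 higher pathway genes, and no intensity trend gave 989 higher with 1 higher pathway gene. The same-numbered arrays share only a number. With the replicate block, 1350 probe sets were higher and 2216 lower, 4 and 8 members, and 4 and 11 pathway genes.

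Changes of sign when an array was left out spanned -2.44 to 0.53 for Isg15, -2.15 to 0.59 for Mx1, -1.14 to 1.16 for Irf7, -0.90 to 1.27 for RT1-T24-3, -1.47 to 0.69 for RT1-S3, -1.67 to 0.057 for Rsad2, -0.99 to 0.49 for Isg20, -0.26 to 0.87 for Ifit2, -0.53 to 0.013 for Stat2, -0.28 to 0.57 for Irf9, -0.63 to 0.17 for Eif2ak2, -0.23 to 0.16 for Bst2, -0.078 to 0.39 for B2m, -0.44 to 0.39 for Tap1 and -0.16 to 0.28 for Tapbp. They spanned -0.67 to 0.11 for RT1-CE10, -0.53 to 0.065 for RT1-DMa, -0.76 to 0.64 for RT1-CE5, -0.57 to 0.66 for RT1-N2, -0.65 to 0.84 for RT1-A, -0.17 to 0.41 for RT1-M3-1, -0.61 to 1.05 for RT1-Da, -0.19 to 0.22 for Ifnar1, -0.069 to 0.023 for Jak1 and -1.08 to 1.21 for Cd74. With a constant of 1 the sign changed for Irf7 (-0.0050) and RT1-CE5 (0.0036). With quantile normalization it changed for Irf7 (-0.031), Bst2 (0.031) and Tap1 (0.051), and with median centring for Bst2 (0.029), Tap1 (0.041), RT1-CE5 (0.0023) and Jak1 (0.042). With hybridization control scaling it changed for Irf7 (-0.46), RT1-T24-3 (-0.28), Irf9 (-0.30), Ifit2 (-0.13), Ifih1 (-0.12), B2m (-0.33), Tapbp (-0.38), RT1-N2 (-0.31), RT1-A (-0.28), RT1-M3-1 (-0.33), RT1-Da (-0.17), Ifnar1 (-0.36) and Cd74 (-0.37). With the mean over probe sets it changed for RT1-Ba (-0.029), Ifit2 (-0.045), Tap1 (0.33), Canx (-0.032), Ifnar1 (-0.37) and Ifngr2 (-0.52).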
